A study of Mus musculus with 8 samples.

Results

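Tight junction messenger RNA was followed through 9 genes: the claudins Cldn1, Cldn3, Cldn4, Cldn7 and Cldn12, occludin (Ocln), junctional adhesion molecule A (F11r) and the scaffold genes Tjp1 (ZO-1) and Tjp3 (ZO-3). They were chosen by symbol and all were found among the 24909 gene entries of the count file. The cells were ASZ001, a mouse basal cell carcinoma line with a doxycycline-inducible vector, and every group received doxycycline for 24 h. One group carried the empty vector and is labelled with doxycycline alone, with no vehicle named. The other 3 groups carried the vector with c-FOS, a subunit of the transcription factor AP-1, and were then given DMSO, 5 µM afatinib or 10 µM UO126 for 6 h. Afatinib blocks the EGFR family of receptor kinases, and UO126 blocks the kinases MEK1 and MEK2 that act below them. Each group held 2 libraries, and the labels do not say whether these came from separate cultures, so p-values measure only the spread between libraries, which may be technical. All groups are of 1 cell line in culture. Since the empty-vector label names no DMSO, an effect of c-FOS and one of the vehicle cannot be told apart in the comparison of c-Fos cells given DMSO with the empty vector, called the c-Fos comparison here.

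Tight junctions are belts of membrane proteins that seal the space between epithelial cells. Claudins form the strands and set which ions and solutes pass, while occludin and the immunoglobulin-like protein JAM-A join them at the contact, and the ZO scaffolds tie the strands to actin. In the epidermis the barrier lies in the upper living layers, and mice without Cldn1 lose water through the skin.

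Total counts per library lay between 17901974 and 23126048. Fos stood at 40.6 and 50.5 CPM (counts scaled to a common library total) in the empty-vector libraries. It lay between 813 and 1163 CPM in all 6 c-Fos libraries, but was not even among them. The UO126 pair was lowest, at 813 and 875 CPM. The afatinib pair held 1106 and 1080 CPM and the DMSO pair 1163 and 1120 CPM, so neither overlapped the UO126 pair. Whether this lower Fos level bears on the UO126 comparisons was not tested. The line was epithelial by its markers: Krt5 and Krt14, keratins of basal keratinocytes, were at 8593 ± 31.0 and 5476 ± 30.5 CPM (mean ± SD, n = 2) with the empty vector, and Cdh1, or E-cadherin, was at 267 ± 5.25 CPM. The keratins of simple epithelia, Krt8 and Krt18, were at or near 0. The summed level of the 6 epithelial markers rested mostly on the 2 basal keratins; it was 14506 CPM in both empty-vector libraries, 16208 to 16913 in the DMSO pair, 14667 to 14973 in the afatinib pair and 17810 to 18673 in the UO126 pair. The summed levels in the libraries of the 7 fibroblast markers ran from 5.02 to 5.29 CPM with the empty vector, 8.11 to 9.03 with DMSO, 7.06 to 7.10 under afatinib and 9.28 to 10.6 under UO126, with Lum and Thy1 at 0 counts throughout. Those of the 5 leukocyte markers ran from 5.39 to 6.10, 6.13 to 6.80, 8.52 to 8.96 and 7.86 to 9.36 CPM in the same order, with Tyrobp at 0. Those of the 5 endothelial markers, nearly all Pecam1, ran from 68.2 to 70.9, 55.3 to 58.9, 56.0 to 58.1 and 60.1 to 61.6 CPM, with Kdr, Tie1 and Cldn5 at 0. Those of the 5 melanocyte markers, mostly Mitf, ran from 52.1 to 60.8, 44.2 to 47.6, 40.6 to 45.4 and 53.1 to 65.0 CPM, with Tyr at 0. Within the leukocyte sum, group means of Cd68 were 5.54, 4.84, 4.93 and 4.99 CPM in the same order. Those of Csf1r were 0.162, 1.49, 3.71 and 3.45 CPM. Within the fibroblast sum, Col1a2 went from 0.856 CPM with the empty vector to 6.41 with DMSO, and Dcn from 2.57 to 0.717. The part of these markers in the results below was not tested.

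Of the 9 genes, 7 had enough counts to be tested. Of these, 4 passed in at least 1 of 6 comparisons and 3 in none. The share of all genes passing in at least 1 was not taken, and 1 comparison alone called 45.1% of them. The 4 of 7 is therefore no result about the group. In RNA from whole cultures, fewer cells that make a transcript and less of it per cell cannot be told apart. Cldn1 rose with c-Fos and fell with both inhibitors, and Cldn4 went the opposite way in all 3 comparisons. F11r fell slightly with c-Fos and rose with afatinib, and Cldn12 fell with both inhibitors. Ocln, Tjp1 and Tjp3 did not pass the test anywhere. A gene was called where its adjusted p was under 0.05 in the edgeR quasi-likelihood test across all 12879 genes tested. With c-Fos 1 of the 7 was higher and 2 were lower, against 42.2% of all tested genes called, 21.5% higher and 20.7% lower. Afatinib raised 2 and lowered 2 of the 7, against 42.7% of all genes called, 21.2% higher and 21.5% lower. UO126 raised 1 and lowered 2, against 28.6% called, 13.9% higher and 14.7% lower. Between afatinib and UO126 1 of the 7 was higher with afatinib and 0 were lower, against 14.3% called, 7.14% in each direction. Measured from the empty vector, 2 were higher and 1 lower with afatinib, against 45.1% called, 21.7% higher and 23.4% lower. For UO126 from the empty vector, 1 was higher and 1 lower, against 37.7% called, 18.3% higher and 19.4% lower. With 7 genes, these counts are near what the background shares give, so they are no result about the group. The members' median log2 fold changes were -0.05, 0.07 and 0.01 in the comparisons with c-Fos, afatinib and UO126, beside -0.01, 0.00 and 0.00 over all genes. Afatinib and UO126 were each compared with the same DMSO libraries, which were also 1 side of the c-Fos comparison.

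**Figure D1:**
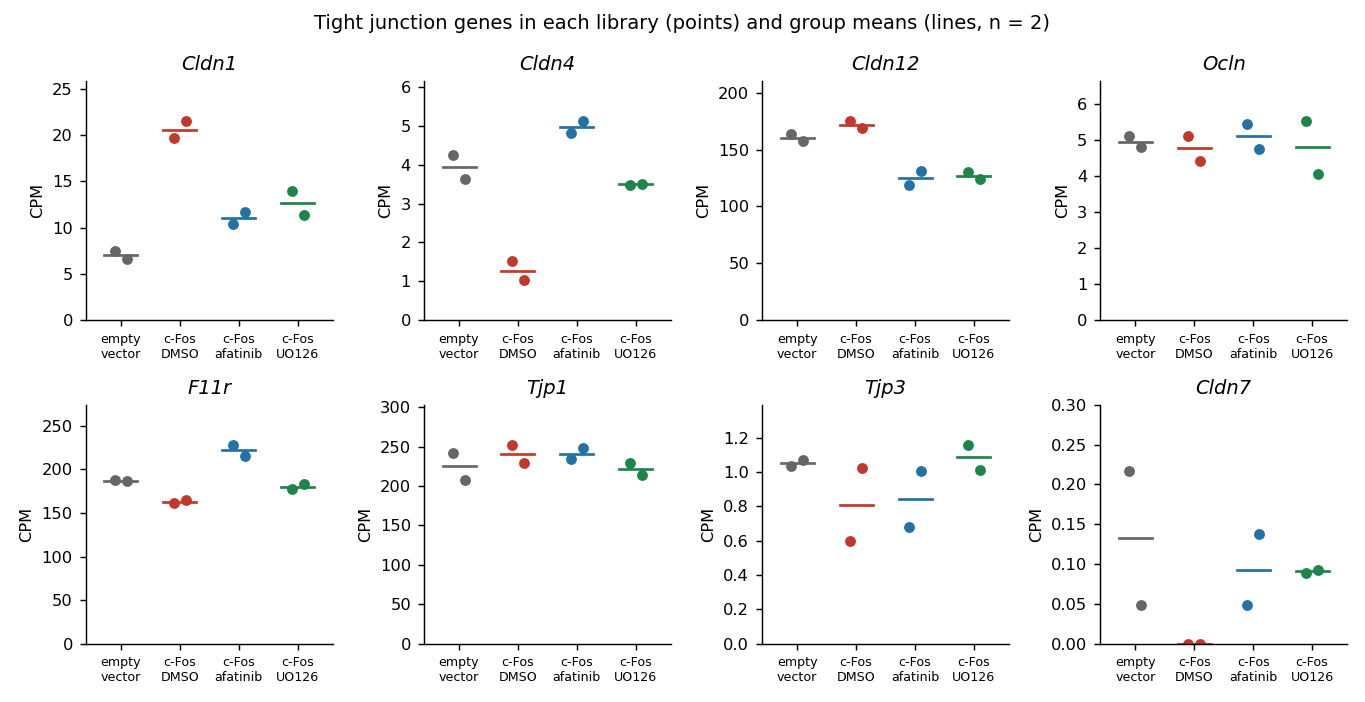
CPM (y axis, from 0) of 8 of the 9 genes in each library, by group (x axis). Points are libraries and lines are means of the 2 libraries; Cldn3, at 0 counts in every library, is left out. The DMSO points stand highest of the groups for Cldn1 (19.6 and 21.5 CPM) and lowest for Cldn4 (1.52 and 1.02 CPM), while Tjp1 and Ocln points overlap between most groups.

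Levels of different genes were compared per kilobase of the gene entry's length in the file. In the empty-vector cells F11r was the most abundant member on this scale, at 75.8 ± 0.18 CPM per kb. Cldn12 followed at 42.2 ± 1.08 and Tjp1 at 32.0 ± 3.48 CPM per kb. The remaining members were far lower, with Cldn4 at 2.18 ± 0.23, Cldn1 at 2.17 ± 0.18, Ocln at 1.21 ± 0.052 and Tjp3 at 0.353 ± 0.0069 CPM per kb. F11r, Cldn12 and Tjp1 together held the first 3 places in all 4 groups. The places of Cldn1 and Cldn4 did not stay alike: the ratio of Cldn1 to Cldn4 per kb was 0.981 and 1.01 in the empty-vector libraries and 7.21 and 11.8 with DMSO. With afatinib the ratio was 1.21 and 1.27, and with UO126 it was 2.24 and 1.81. The DMSO libraries thus stood apart from all others in this ratio, and the afatinib libraries lay closest to the empty vector. The ratio joins the 2 members whose group means varied most, and in opposite directions, so it restates their changes and adds no support. The DMSO ratios also divide by Cldn4 at only 27.5 and 17.5 deposited counts.

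RefSeq promoter windows, 250 bases before each annotated start in build GRCm38.p6, were found for all 9 genes, 14 windows in all. The AP-1 site TGACTCA was searched on both strands, the other strand reading TGAGTCA. It is shown because c-Fos is part of the factor that binds it. It occurred in the windows of Cldn4 and F11r and in none of the 12 windows of the other 7 genes, beside 4.46% of all 32851 mouse windows of this length. In Cldn4 (chr5:134946935-134947184, minus strand) the sites began 240 and 158 bases before the start, and in F11r (chr1:171437311-171437560, plus strand) the site began 109 bases before it. The window of Cldn1 (chr16:26371840-26372089, minus strand), the member that rose with c-Fos, holds no such letters and is printed for comparison. Each is written 5′ to 3′ toward the start, with AP-1 sites in capitals.
Cldn4: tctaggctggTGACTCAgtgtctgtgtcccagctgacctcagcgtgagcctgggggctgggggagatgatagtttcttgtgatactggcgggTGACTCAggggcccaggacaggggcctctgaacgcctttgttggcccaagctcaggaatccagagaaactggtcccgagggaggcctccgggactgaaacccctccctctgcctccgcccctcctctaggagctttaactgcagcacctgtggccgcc
F11r: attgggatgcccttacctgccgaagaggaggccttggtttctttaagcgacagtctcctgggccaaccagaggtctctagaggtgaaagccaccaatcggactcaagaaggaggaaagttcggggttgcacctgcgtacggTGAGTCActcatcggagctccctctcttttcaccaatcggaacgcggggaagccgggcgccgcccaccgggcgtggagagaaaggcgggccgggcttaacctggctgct
Cldn1: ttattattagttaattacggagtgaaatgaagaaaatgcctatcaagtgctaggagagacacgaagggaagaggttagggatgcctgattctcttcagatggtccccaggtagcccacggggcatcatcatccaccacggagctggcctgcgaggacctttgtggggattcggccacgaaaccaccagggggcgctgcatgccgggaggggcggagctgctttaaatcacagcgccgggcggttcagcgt
A match describes the letters of the reference and is no evidence of binding in these cells, which was not measured. The E-box CAGGTG (other strand CACCTG), a site of Snail and ZEB repressors, occurred in the printed windows of Cldn4 and F11r and in windows of Cldn7, Ocln and Tjp3, beside 17.2% of all windows. It does not overlap the AP-1 sites in either printed window. The ETS core CCGGAA (other strand TTCCGG) occurred in windows of Cldn7, Cldn12 and Ocln, beside 12.0% of all windows.

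Cldn1 is the claudin whose loss opens the epidermal barrier in mice. The empty-vector libraries held 7.44 and 6.60 CPM and the DMSO libraries 19.6 and 21.5, while afatinib left 10.4 and 11.6 CPM and UO126 14.0 and 11.3. The DMSO libraries were the highest and the empty-vector libraries the lowest, with no overlap, and the libraries of the 2 inhibitors overlapped between these. Cldn1 was 2.92-fold higher with c-Fos than with the empty vector (log2 fold change 1.55 ± 0.13 SE, adjusted p = 4.8e-07). It then fell with afatinib (-0.90 ± 0.12, adjusted p = 5.2e-05) and with UO126 (-0.70 ± 0.12, adjusted p = 6.7e-04). Neither inhibitor brought it to the empty-vector level in 6 h. It stayed 1.57-fold above that level with afatinib (0.65 ± 0.13, adjusted p = 0.0014) and 1.80-fold above it with UO126 (0.85 ± 0.13, adjusted p = 1.8e-04). Between the inhibitors the difference was -0.20, with a 95% interval from -0.47 to 0.07 (adjusted p = 0.32). Of all tested genes, 7.27% were called higher with c-Fos and lower with both inhibitors, and Cldn1 was the 1 member among them.

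Cldn4, a claudin of many epithelia that in skin lies in the upper layers, moved against Cldn1. Its level was low throughout, at 4.24 and 3.64 CPM with the empty vector, 1.52 and 1.02 with DMSO, 4.82 and 5.13 under afatinib and 3.48 and 3.50 under UO126. The 2 DMSO libraries, with 27.5 and 17.5 deposited counts, lay below all 6 others, which held between 75 and 112.5 counts. Cldn4 fell with c-Fos to 0.324 of the empty-vector level (log2 fold change -1.62 ± 0.22, adjusted p = 5.9e-05). Afatinib raised it 3.88-fold over DMSO (1.96 ± 0.21, adjusted p = 8.7e-06) and UO126 raised it 2.73-fold (1.45 ± 0.23, adjusted p = 3.8e-04). Against the empty vector neither inhibitor group passed: afatinib was at 0.33 (95% interval -0.03 to 0.69, adjusted p = 0.12) and UO126 at -0.18 (-0.55 to 0.20, adjusted p = 0.46). Afatinib stood 0.51 above UO126 without passing the test (interval 0.14 to 0.88, adjusted p = 0.061), and passed with no low-count filter (adjusted p = 0.025). Of all tested genes, 5.57% were called lower with c-Fos and higher with both inhibitors, and Cldn4 was the 1 member among them.

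F11r encodes JAM-A, an adhesion molecule at the junction that also binds polarity proteins. It stood at 187 CPM in both empty-vector libraries, 162 and 165 with DMSO, 229 and 216 under afatinib and 177 and 183 under UO126. The DMSO libraries were the lowest and the afatinib libraries the highest, and no 2 groups overlapped. The fall with c-Fos was small, at 0.871 of the empty-vector level (log2 fold change -0.20 ± 0.060, adjusted p = 0.017). That call ended when any 1 of the 4 compared libraries was left out, with adjusted p of 0.14 and 0.083 without empty-vector replicate 1 or 2 and of 0.14 and 0.074 without DMSO replicate 1 or 2. Afatinib raised F11r 1.36-fold over DMSO (0.45 ± 0.060, adjusted p = 5.6e-05), which was above the empty vector as well (0.25 ± 0.060, adjusted p = 0.0042). With UO126 it was at 0.14 from DMSO (95% interval 0.01 to 0.27, adjusted p = 0.092), and it passed without UO126 replicate 1 (adjusted p = 0.047). The direct difference between afatinib and UO126 passed at 0.30 ± 0.060 (adjusted p = 0.0051), and did not pass without afatinib replicate 1 (adjusted p = 0.055).

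Cldn12, a claudin that lacks the usual PDZ-binding tail, was by far the most abundant claudin. It was at 163 and 157 CPM with the empty vector, 175 and 169 with DMSO, 119 and 131 under afatinib and 130 and 124 under UO126. All 4 inhibitor libraries lay below all 4 others. The difference with c-Fos did not pass (0.10, 95% interval -0.04 to 0.24, adjusted p = 0.24). Cldn12 fell by 0.46 with afatinib (SE 0.067, adjusted p = 1.0e-04) and by 0.44 with UO126 (SE 0.067, adjusted p = 3.2e-04). Both inhibitor groups were thus also below the empty vector, at -0.36 (adjusted p = 6.5e-04) and -0.34 (adjusted p = 0.0012). The inhibitors differed from each other by -0.02, with an interval from -0.16 to 0.12.

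Cldn3 and Cldn7, claudins of simple and glandular epithelia, were barely counted and were not tested. Cldn3 had 0 counts in all 8 libraries, where 3 counts would correspond to 0.130 to 0.170 CPM. Hmgcs1, a sterol synthesis gene that cells in general use, also had 0 counts in all 8, so a gene listed at 0 in this file need not have been silent. Cldn7 held 15 counts in all: 5 and 1 with the empty vector, 0 and 0 with DMSO, 1 and 3 under afatinib and 2.5 and 2.5 under UO126. These are at or near the 3-count floor, and no difference was detectable at this depth.

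**Figure D2:**
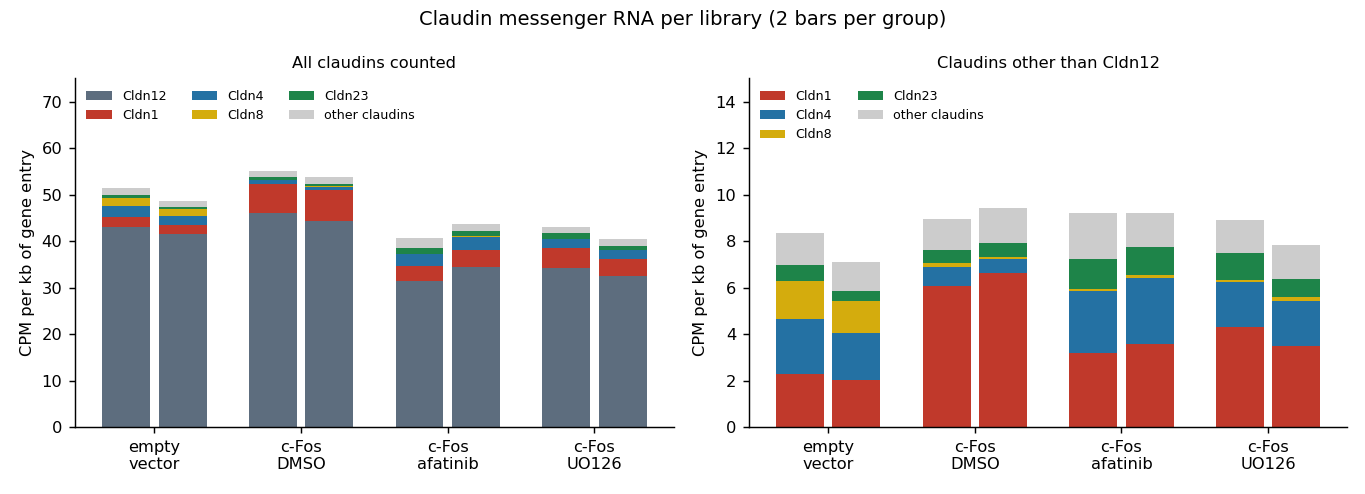
CPM per kb of gene entry (y axis, from 0) summed over claudins, with 2 bars per group, 1 per library. The left panel has all claudins and the right panel leaves out Cldn12. Cldn12 makes up most of each bar (78.1 to 84.5% as group means), and in the right panel the Cldn1 segment is tallest with DMSO while Cldn8 is visible mainly in the empty-vector bars.

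Per kb, Cldn12 made up 84.5 ± 1.14% of the summed claudin level with the empty vector, 83.1 ± 0.91% with DMSO, 78.1 ± 1.15% under afatinib and 80.0 ± 0.94% under UO126. Cldn1 went from 4.34 ± 0.20% with the empty vector to 11.7 ± 0.94% with DMSO, and was at 8.08 ± 0.21% under afatinib and 9.34 ± 0.95% under UO126. Cldn4 was at 4.35 ± 0.30, 1.29 ± 0.34, 6.52 ± 0.052 and 4.62 ± 0.23% in the same order. The sum over all claudins was 49.96 ± 1.96 CPM per kb with the empty vector, 54.5 ± 0.84 with DMSO, 42.2 ± 2.21 under afatinib and 41.8 ± 1.88 under UO126. The lower sums under the inhibitors mostly follow Cldn12. From the empty vector to DMSO, Cldn1 went from 2.17 to 6.36 CPM per kb and Cldn12 from 42.2 to 45.3. Of the 23 claudin genes in the file, 7 were tested and 6 had 0 counts in every library.

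Occludin, a MARVEL protein of the junction, was low and even. Ocln stood at 5.11 and 4.80 CPM with the empty vector, 5.11 and 4.43 with DMSO, 5.45 and 4.77 under afatinib and 5.54 and 4.06 under UO126. The UO126 libraries spanned those of all other groups. Its difference from the empty vector with c-Fos was -0.05 (95% interval -0.44 to 0.33), and its differences from DMSO were 0.09 (-0.29 to 0.48) with afatinib and 0.01 (-0.37 to 0.39) with UO126. The changes of Cldn12, -0.46 with afatinib and -0.44 with UO126, lie outside the intervals of Ocln in these comparisons. Smaller falls of Ocln, and rises of up to 0.48 and 0.39, lie inside them and could not be told from no change at this depth.

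Tjp1, the ZO-1 scaffold, was the steadiest of the abundant members. It was counted at 242 and 208 CPM with the empty vector, 252 and 229 with DMSO, 234 and 248 under afatinib and 230 and 213 under UO126. The empty-vector pair alone spanned the UO126 pair, and the DMSO and afatinib pairs overlapped. Its differences were 0.10 with c-Fos (95% interval -0.07 to 0.27), 0.00 with afatinib (-0.17 to 0.17) and -0.12 with UO126 (-0.29 to 0.05), with adjusted p of 0.35, 0.995 and 0.28. Tjp3, or ZO-3, a scaffold relative that epithelia use, held between 11 and 26.5 counts per library. That was 1.04 and 1.07 CPM with the empty vector, 0.598 and 1.02 with DMSO, 0.681 and 1.01 under afatinib and 1.16 and 1.01 under UO126. Its intervals were wide: -1.13 to 0.36 with c-Fos, -0.71 to 0.85 with afatinib and -0.31 to 1.17 with UO126. In RefSeq the gene body of Tjp3 overlaps that of Apba3, and the library kit does not mark strand, so reads of the pair may not be separable.

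**Figure D3:**
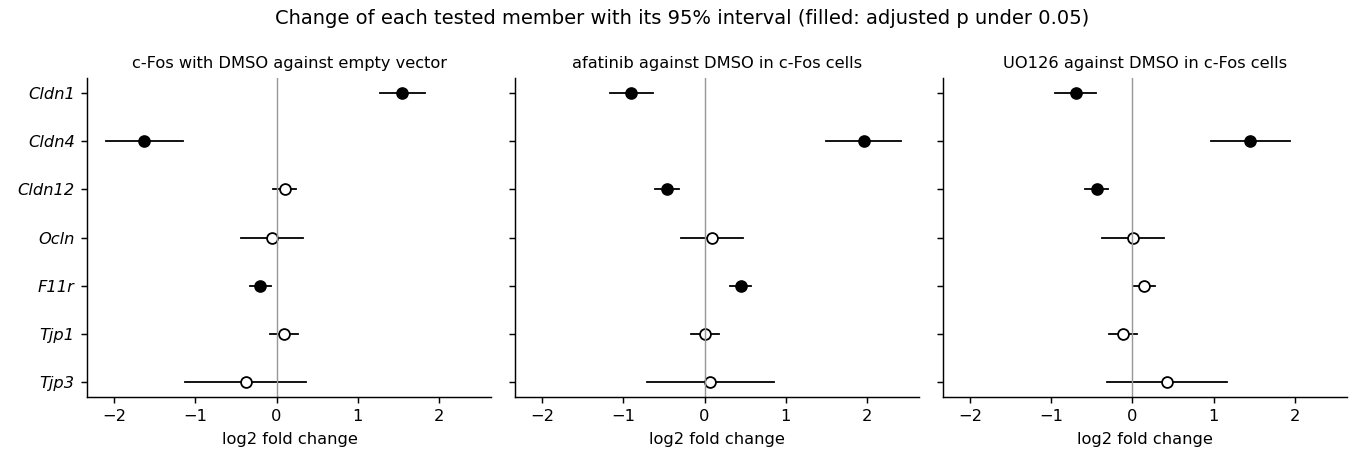
Log2 fold change (x axis) of the 7 tested genes (y axis) in 3 comparisons, with 95% intervals from the edgeR fit; filled points have an adjusted p under 0.05. Cldn1 and Cldn4 lie on opposite sides of 0 in every panel, and the intervals of Tjp1 are narrow around 0 while those of Tjp3 are wide.

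By the order of group means, Cldn1 ran from DMSO through UO126 and afatinib to the empty vector, with only the UO126 and afatinib neighbours not differing by the test. Cldn4 ran from afatinib through the empty vector and UO126 to DMSO, and only the last step, 1.45 down to DMSO, passed. F11r ran in the same order as Cldn4, but there the first step passed (0.25) and the steps from the empty vector to UO126 and from UO126 to DMSO did not. Cldn12 ran from DMSO through the empty vector and UO126 to afatinib, with only the middle step, 0.34, passing. For Ocln, Tjp1 and Tjp3 no neighbouring groups differed by the test.

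For the 3 members whose group means varied most, the genes with the closest profile were found by the root mean square difference of centred log2 CPM over the 8 libraries, which come from only 4 groups. Nearest to Cldn4 (range 1.97) were Klf12 (0.16), Exph5 (0.17) and Sox6 (0.18), of 9884 candidates. Sox6, for example, had group means of 63.7 CPM with the empty vector, 17.7 with DMSO, 60.9 under afatinib and 56.0 under UO126. Nearest to Cldn1 (range 1.55) were Atp10a (0.10), the caveolin gene Cav1 (0.11) and Tgfa (0.12), which encodes a ligand of EGFR. Tgfa was at 16.4, 53.3, 30.0 and 28.6 CPM in the same order of groups. Nearest to Cldn12 (range 0.46) were Rbm12 (0.040), the desmosomal gene Dsp (0.046) and Myof (0.047).

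The wider junction was described with 55 other tight junction genes, of which 34 were tested. With c-Fos 7 were higher and 9 lower, against the 42.2% of all genes called, and their median was -0.11 beside -0.01 for all genes. With afatinib 11 were higher and 3 lower (42.7% of all genes called), with a median of 0.10 beside 0.00. With UO126 10 were higher and 7 lower (28.6% of all genes called), with a median of 0.02 beside 0.00. Between afatinib and UO126, 2 were higher and 1 lower (14.3% of all genes called). Some of these counts rest on single libraries: without DMSO replicate 2 the afatinib count was 8 and the UO126 count 7, without DMSO replicate 1 the UO126 count was 11, and without afatinib replicate 2 the count between the inhibitors was 0.

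Among the other claudins, Cldn8, singled out after its values were seen, was at 3.89 and 3.30 CPM with the empty vector and at 0.381 and 0.227 with DMSO. It was also low with afatinib (0.195 and 0.275 CPM) and UO126 (0.268 and 0.369), so all 6 c-Fos libraries lay far below both empty-vector libraries. The fall with c-Fos was -3.54 ± 0.32 (adjusted p = 1.3e-06), and its differences from DMSO were -0.36 (95% interval -1.57 to 0.84) with afatinib and 0.05 (-1.07 to 1.18) with UO126. Its c-Fos libraries held only 4 to 8.5 counts each. Cldn23, likewise singled out, rose with afatinib (1.10 ± 0.30, adjusted p = 0.0089) from 1.06 CPM with DMSO to 2.27, a call that ended without DMSO replicate 1 (adjusted p = 0.066).

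Of 7 tested scaffold genes, c-Fos raised 1 and lowered 3, afatinib raised 4 and lowered 1, and UO126 raised 4 and lowered 2, against 42.2, 42.7 and 28.6% of all genes called in these comparisons. Of the scaffold genes called with UO126, Magi2, Mpdz and Patj were not called without DMSO replicate 2, nor were Magi1 and Mpdz of those called with afatinib. Cgn, or cingulin, which links the junction to myosin, rose from 73.5 ± 0.67 CPM to 108 ± 1.13 with afatinib (0.55) and 109 ± 7.70 with UO126 (0.57). Magi3, a multi-PDZ scaffold, rose by 0.64 and 0.53 in the same comparisons, and its relative Magi1 fell by 0.58 with c-Fos.

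Of 9 tested polarity genes, c-Fos raised 2 and lowered 2, afatinib raised 4 and lowered 0, and UO126 raised 4 and lowered 1. The shares of all genes called were 42.2, 42.7 and 28.6%, and with 9 genes the counts are no result about polarity genes. Without DMSO replicate 2, Pard6a and Prkci were not called with afatinib, and Prkcz, Pard6a and Pard3 were not called with UO126. The latter 3 were also not called with UO126 without DMSO replicate 1. Pard6g, a PAR6 subunit of the polarity complex, fell with c-Fos from 150 ± 9.96 to 84.1 ± 5.97 CPM (-0.83 ± 0.074, adjusted p = 1.1e-06) and rose with afatinib to 140 ± 7.66 CPM (0.74 ± 0.075, adjusted p = 4.4e-06). Under UO126 Pard6g was at 109 ± 0.23 CPM, also above DMSO. Afatinib stood above UO126 for it by 0.37 (adjusted p = 0.0053), which did not pass without afatinib replicate 2 (adjusted p = 0.063). Llgl2, a basolateral polarity gene, rose with afatinib by 0.54 to 101 ± 6.07 CPM. It was at a like level under UO126 (98.0 ± 5.65 CPM), beside 69.9 ± 3.92 with DMSO and 57.1 ± 1.23 with the empty vector. Among 11 trafficking genes and cytoplasmic regulators, c-Fos raised 3 and lowered 3, where 42.2% of all genes were called. With 11 genes, these counts are no result about this class. The angiomotin relative Amotl2 fell with c-Fos from 448 ± 19.9 to 295 ± 9.85 CPM (-0.60). Amotl2 was lower with afatinib than with UO126 by 0.32 (adjusted p = 0.0039), not called without afatinib replicate 2 (adjusted p = 0.054).

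**Figure D4:**
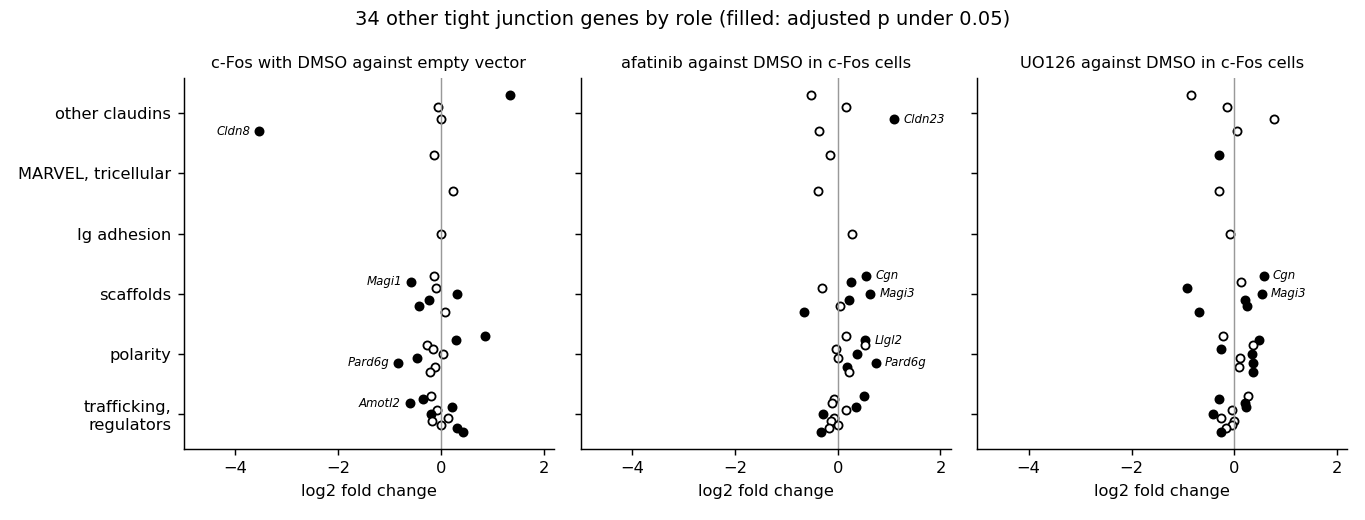
Log2 fold change (x axis) of the 34 other tested tight junction genes, grouped by role (y axis), in 3 comparisons. Filled points have an adjusted p under 0.05. Names mark Cldn8, Cldn23, Cgn, Magi1, Magi3, Pard6g, Llgl2 and Amotl2 where filled and at least 0.5 in size. Other filled points, Cldn15 with c-Fos among them, are unnamed. Cldn8 stands far to the left with c-Fos (-3.54), and Cgn and Magi3 lie right of 0 with both inhibitors.

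Genes that act on claudins were counted beside them. Of 6 such genes, c-Fos raised 1 and lowered 2. Epcam, whose protein binds and stabilizes claudins, rose from 170 ± 5.08 to 292 ± 19.9 CPM (0.79 ± 0.065, adjusted p = 5.0e-07). Spint1, an inhibitor of the protease that cleaves EpCAM, fell from 6.16 ± 0.27 to 3.44 ± 0.37 CPM (-0.84 ± 0.16, adjusted p = 8.9e-04). Afatinib raised 2 of the 6 and lowered 0, and UO126 raised 0 and lowered 1, near the 42.2, 42.7 and 28.6% of all genes called. Of 13 tested transcription and splicing regulators of epithelial or mesenchymal state, c-Fos raised 4 and lowered 4, afatinib raised 3 and lowered 4, and UO126 raised 5 and lowered 2, where 42.2, 42.7 and 28.6% of all genes were called. Twist1, a mesenchymal factor, fell with UO126 from 17.0 ± 1.30 to 11.2 ± 1.48 CPM (-0.60 ± 0.12, adjusted p = 0.0023). The epidermal repressor gene Ovol1 was at 8.96 ± 0.28 CPM with afatinib against 16.3 ± 1.08 with UO126 (-0.87 ± 0.11, adjusted p = 3.2e-04). Grhl1, a factor of epithelial junction genes, and Ovol2 were higher with afatinib than with UO126, by 0.67 ± 0.13 (adjusted p = 0.0051) and 0.56 ± 0.11 (adjusted p = 0.0053). Ovol1 rose with UO126 over DMSO by 0.49, a call that ended without DMSO replicate 2 (adjusted p = 0.082).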

How the data were processed

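Messenger RNA of 8 libraries in 4 groups was sequenced. TopHat and then HOMER processed the reads at isoform level, per the series design text, and the build mm9 and DESeq2 are listed without a role in the submitters' processing notes. The authors deposited expected counts that are not normalized, 1 entry per symbol for 24909 entries, together with each entry's length in bases as another column. The kit named in the labels' protocols does not mark strand. Of the entries, 26 with symbols turned into dates were left out.

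Counts were rounded and analysed with edgeR 4.0.16 in R 4.3.3: genes were filtered by expression (minimum count 10, minimum total 15), scaled by trimmed mean of M-values and tested by the robust quasi-likelihood test with a term for each group, which leaves 4 residual degrees of freedom. P-values are two-sided and Benjamini-Hochberg adjusted over all 12879 genes. CPM use scaled library sizes. The self-test used simulated counts. Members and lists were chosen with earlier results of these data known. Named are the members, Fos, up to 5 called genes per comparison from the other lists (at least 5 CPM, no overlap of libraries) and 3 nearest profiles for each of 3 members. One gene that this rule names is not reported here. The libraries of a group were not copies of each other, as they differed by more than counting alone gives (chi-square per degree of freedom 4.85 to 25.1). The ribosomal RNA entry Rn45s was part of this and made up 1.62 and 3.55% of the counts of the UO126 libraries. The measure cannot show whether libraries came from separate cultures. Alternatives used DESeq2 1.42.0, other filters, a replicate block, fewer libraries and no robust estimation.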

Additional observations from a re-analysis of the deposited data

How the results depend on the processing

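Across the alternatives, among the fold changes of the members and the other genes followed singly, 581 values that were called kept their direction and call, 12 lost the call and none reversed. These lost calls were of F11r, Cldn15, Cldn23, Ovol1, Pard6g and Amotl2. Genes other than the members were mostly followed because the main fit had called them. Some alternatives also left out a library from neither of the compared groups. The tally of kept calls therefore overstates how far they were put to the test. Cldn15 (1.34 with c-Fos) was lost with the DESeq2 Wald test (1.36, adjusted p = 0.10), without replicate 1 of the empty vector (1.00) and when DMSO replicate 2 was left out (1.24). With at least 5 CPM in 2 libraries Cldn4 was not tested. The replicate block (the number as a term) left 3, 4, 3 and 1 members called with c-Fos, afatinib, UO126 and between the inhibitors, as without it, and changed no member's call. Deviations of same-numbered libraries from their group means correlated little (r from -0.18 to 0.11). With 2 libraries per group, this cannot show whether they shared a culture or day. Between the inhibitors, no low-count filter gave 2 members (Cldn4 added) and 5 other junction genes, and the 4 compared libraries alone gave 986 genes in all against 1839. Leaving out 1 library gave 0 to 1 members, 0 to 5 other junction genes and 698 to 2325 genes in all between the inhibitors. It gave 8 to 18 other junction genes and 3597 to 6376 genes for afatinib, against 5497, and 7 to 18 and 1881 to 4115 for UO126, against 3681; the lowest of these 2 comparisons came without DMSO replicate 2. Members called stayed at 4 for afatinib and at 3 to 4 for UO126. Signs changed only for values that were never called, when 1 library was left out. Ocln then ranged from -0.14 to 0.046 with c-Fos, from -0.22 to 0.22 with UO126, from -0.12 to 0.34 between inhibitors, and against the empty vector from -0.033 to 0.16 with afatinib and -0.27 to 0.19 with UO126. Tjp1 ranged from -0.0080 to 0.24 with c-Fos, from -0.045 to 0.076 with afatinib and from -0.12 to 0.12 with UO126 against the empty vector. Tjp3 ranged from -0.26 to 0.52 with afatinib and -0.034 to 0.17 with UO126 against the empty vector, and Cldn12 from -0.080 to 0.058 between inhibitors. The cause was not tested. Low counts limit what Cldn3, Cldn7, Tjp3, Cldn8, Cldn15 and Cldn23 can show. They also limit Cldn4, which had 27.5 and 17.5 counts in the DMSO libraries.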
